A study of Bos taurus with 8 samples.

Results

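The genes of the cyclic AMP (cAMP) and protein kinase A (PKA) machinery were compared between large luteal cells (LLC) and small luteal cells (SLC) of the bovine corpus luteum (CL). A gene was taken when the only symbol of its probe cluster named an adenylyl cyclase, a PKA subunit or PKA inhibitor, an A-kinase anchoring protein, a cyclic nucleotide phosphodiesterase, a Rap exchange factor of the RAPGEF family, or CREB, CREM, ATF1, CREBBP or a CREB-regulated coactivator. This gave 72 of the 18087 genes measured, each represented by its cluster of highest mean over all arrays. They were 9 adenylyl cyclases, 2 catalytic and 4 regulatory PKA subunits, 3 PKA inhibitors, 15 anchoring proteins, 21 phosphodiesterases, 6 exchange factors and 12 transcription factors or coactivators. The rule itself used names only, but it was chosen with earlier results of these data known. For a gene with several clusters, the choice of cluster used the measured signals.

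RNA of 4 LLC samples and 4 SLC samples was hybridised to Affymetrix bovine gene arrays, with 1 array for each sample. Both cell types were primary cells sorted by FACS, after collagenase digestion, a Percoll gradient and Hoechst staining, from mature mid-cycle CL of lactating Holstein cows whose estrus had been synchronized with cloprostenol. The labels call the samples biological replicates 1 to 4 of each cell type but do not name cows, so the p-values measure the spread between these samples. Both fractions were sorted from mixed luteal cells, so an LLC and an SLC sample may share a CL, which the labels do not say. A sorted fraction can hold other cells of similar size, and fewer cells of a type and less RNA per cell cannot be told apart in such samples.

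In luteal cells, luteinizing hormone and other hormones act through a stimulatory G protein on adenylyl cyclase, which makes cAMP from ATP. cAMP binds the regulatory subunits of PKA and frees the catalytic subunits, which phosphorylate proteins of steroid synthesis and transcription factors such as CREB. Anchoring proteins hold PKA at particular places in the cell, and phosphodiesterases break cAMP down. PKA is a main driver of progesterone synthesis in SLC, whereas LLC make much progesterone without added luteinizing hormone.

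The signal is the log2 value per cluster that the authors deposited, and each difference is LLC minus SLC on that scale, so that 1 unit is a 2-fold difference. Signals of different genes come from different probes, and their levels were not compared with each other. For isoform pairs only, the shift of their difference between cell types is described. A cluster was called when its p from limma, adjusted by the Benjamini-Hochberg method across the 24415 clusters of the array, was under 0.05, and the fold filter of the study asked in addition for a difference above 2-fold. At adjusted p under 0.05, 6 of the 72 genes were higher in LLC, or 8.33%, where 9.64% of all clusters were called in that direction. In the other direction, 12 genes, or 16.7%, were lower in LLC, where 10.2% of all clusters were called. In either direction 18 of 72 genes were called, where 19.8% of all clusters were. The fold filter was passed by 2 genes higher in LLC (2.39% of all clusters) and 3 lower in LLC (3.07% of all clusters), 5.46% of all clusters passing it either way. All 4 LLC arrays lay above all 4 SLC arrays in 5 genes (11.2% of all clusters) and below them in 10 genes (11.3% of all clusters). The shares at adjusted p under 0.05 were near the background for the genes higher in LLC and above it for the genes lower in LLC, though without moderation of the variances the second was 6.94%, against 6.53% of all clusters. Of the 72 genes, 12 had mean signals at or under a background limit in both cell types, taken as the 95th percentile of 718 olfactory receptor clusters (2.34 in LLC, 2.26 in SLC), and no difference of theirs was called. Among clusters above the 40th percentile of mean signal, 10.9% of the 55 genes tested were higher in LLC, against 15.8% of the clusters, and 23.6% were lower, against 17.7%.

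**Figure D1:**
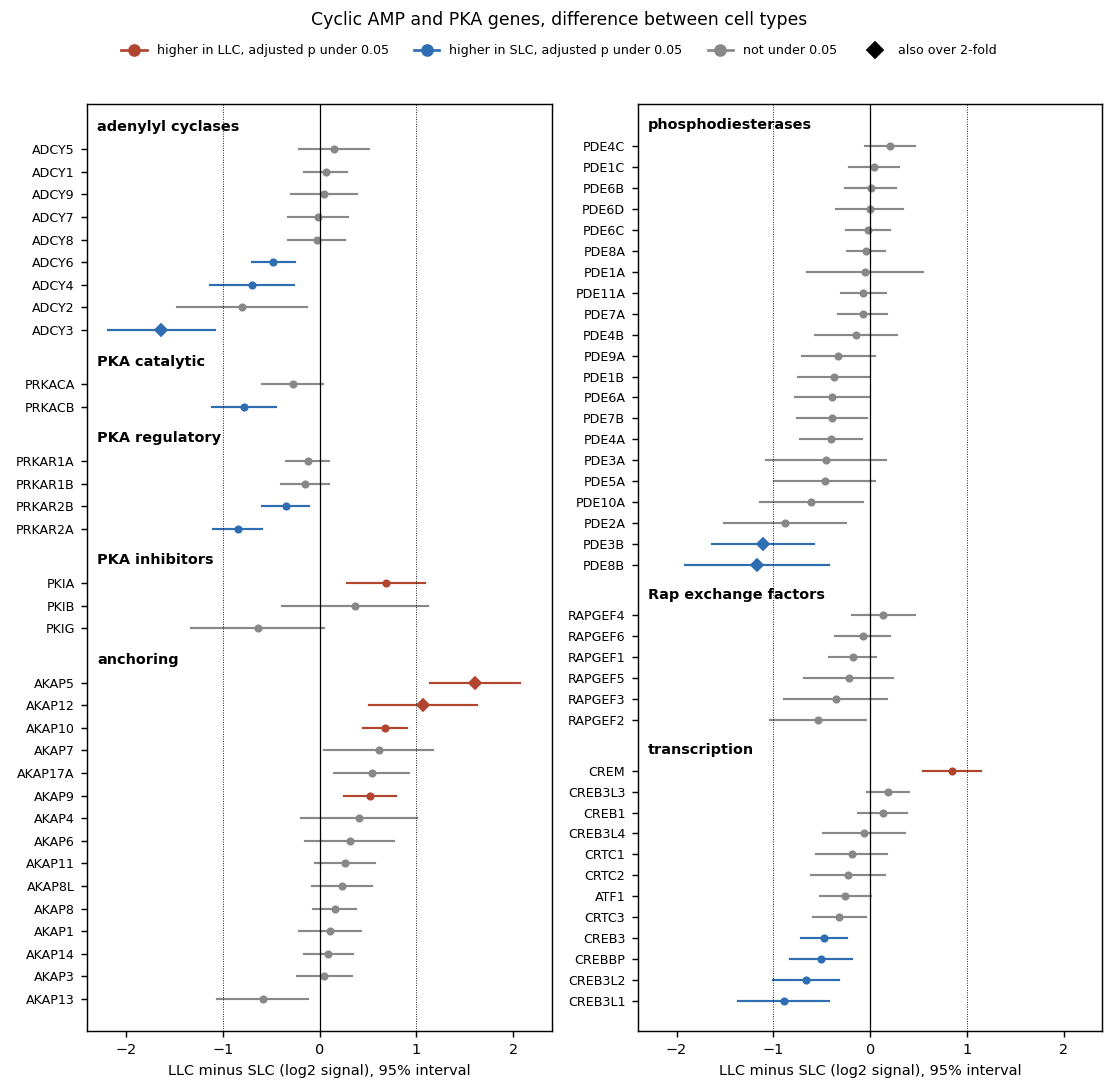
Difference between LLC and SLC (log2 signal, horizontal axis) for the 72 genes, grouped by role, with the 95% interval of the limma fit as a line. The dotted lines mark 2-fold, and the 5 diamonds mark genes past the fold filter: AKAP5 and AKAP12 to the right, ADCY3, PDE3B and PDE8B to the left.

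LLC replicate 4 stood nearer to SLC than the other LLC arrays did. It was the LLC array closest to the SLC mean in 16 of the 18 called genes, and in 55.4% of all 4834 called clusters. Without it, 9 genes were higher in LLC (11.1% of all clusters) and 16 lower (11.5% of all clusters), including 17 of the 18 genes called with all arrays. Over all clusters, Pearson's r was 0.978 to 0.986 among LLC arrays, 0.989 to 0.991 among SLC arrays and 0.949 to 0.977 between the types, a description across genes. CYP11A1 and HSD3B1, enzymes of progesterone synthesis, were high in both cell types, with signals of 10.87 or more on every array. The list of 4 luteal steroidogenesis markers that holds them had a mean of 11.27 to 11.33 in LLC and 10.82 to 10.97 in SLC. Of these 4 markers, 2 were called higher in LLC and none lower. PTGFR, the prostaglandin F2alpha receptor typical of large cells, had signals of 10.89 to 11.37 in LLC and 6.82 to 7.75 in SLC. The theca hormone gene INSL3 had 5.30 to 6.83 in LLC and 7.95 to 9.27 in SLC. LHCGR, the luteinizing hormone receptor and the other marker of small cells, overlapped, with 7.33 to 9.38 in LLC and 9.08 to 9.60 in SLC. Its difference of -1.17 was not called (limma adjusted p = 0.0593), and its highest LLC value was that of replicate 4.

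Marker lists of other cell types were lower in LLC. The mean signal of 10 macrophage markers was 3.22 to 3.75 in LLC arrays and 5.43 to 5.81 in SLC arrays, with 10 of 10 lower in LLC at adjusted p under 0.05. For 10 endothelial markers it was 4.38 to 5.74 in LLC and 6.21 to 6.88 in SLC (8 of 10 lower). For 6 fibroblast markers it was 7.68 to 8.84 in LLC and 9.76 to 10.17 in SLC (6 of 6 lower), and for 7 pericyte and smooth muscle markers 4.19 to 5.25 in LLC and 5.61 to 6.61 in SLC (4 of 7 lower). Lymphatic endothelial markers, 4 in number, overlapped, at 5.41 to 6.80 in LLC and 6.12 to 7.08 in SLC (1 of 4 lower), and the highest LLC value was that of replicate 4. Only MSR1 among the macrophage markers had an LLC mean at or under the background limit, and no marker of these 5 lists had an SLC mean there. Lymphocyte markers (6, mean 1.85 to 2.08 in LLC and 1.84 to 2.09 in SLC) and erythrocyte markers (4, 1.90 to 2.17 in LLC and 1.99 to 2.23 in SLC) were mostly at or under that limit, with no member called. Every gene below that was lower in LLC thus moved in the same direction as the macrophage, endothelial, fibroblast and pericyte lists, whose part in these differences was not tested. None of these lists of other cell types was higher in LLC.

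Among the enzymes that make cAMP, 3 of 9 adenylyl cyclase genes were called lower in LLC (10.2% of all clusters) and none higher (9.64% of all clusters). ADCY3, an adenylyl cyclase best known from olfactory neurons and primary cilia, had the largest difference of the 72 genes among those above the background limit in both cell types. Its signals were 5.13, 5.53, 6.06 and 6.43 in LLC replicates 1 to 4, against 7.27, 7.37, 7.68 and 7.38 in SLC replicates 1 to 4. The groups did not overlap, and the LLC arrays spread more widely than the SLC arrays (SD 0.57 in LLC, 0.18 in SLC, n = 4 each). The difference was -1.64 (SE 0.25, limma adjusted p = 0.00167), or 3.11-fold lower in LLC, and it passed the fold filter in all 18 alternative settings.

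ADCY6, one of the cyclases that calcium inhibits, was lower in LLC by a smaller but tighter margin. Its signals were 4.05, 3.99, 4.01 and 4.08 in LLC, against 4.68, 4.47, 4.55 and 4.35 in SLC. All LLC values lay below all SLC values, with a difference of -0.48 (SE 0.10, limma adjusted p = 0.00804). ADCY4, a cyclase stimulated by G protein beta-gamma subunits, had signals of 3.13, 3.40, 2.94 and 3.77 in LLC and 4.36, 3.99, 3.68 and 4.02 in SLC. LLC replicate 4 lay above the lowest SLC array, and the difference of -0.70 (SE 0.20, limma adjusted p = 0.0299) lost its call in 8 of 18 alternative settings.

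The remaining cyclases were not called. ADCY9, which forskolin activates poorly, averaged 5.32 ± 0.24 in LLC and 5.27 ± 0.23 in SLC (SD, n = 4 each), and the 95% interval of its difference ran from -0.29 to 0.38. ADCY2 lay under the background limit in LLC (1.96 ± 0.49) and above it in SLC (2.76 ± 0.56), with an adjusted p of 0.0938 from limma, or 0.0288 without LLC replicate 4. ADCY1, ADCY5, ADCY7 and ADCY8 were at or under the limit in both cell types. The median difference of the 9 genes was -0.03, or -0.132 without LLC replicate 4, against 0.0150 for all clusters.

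PKA itself is a complex of catalytic and regulatory subunits, and all 6 of its measured subunit genes had lower means in LLC, 3 of them called. Of all clusters, 47.2% had a negative difference and 10.2% were called lower in LLC. PRKACB, the beta catalytic subunit, had signals of 5.96, 6.28, 6.17 and 6.20 in LLC, against 6.89, 6.88, 7.33 and 6.63 in SLC. The groups were separate, with a difference of -0.78 (SE 0.15, limma adjusted p = 0.00551), or 1.72-fold lower in LLC. PRKACA, the alpha catalytic subunit, had 6.43, 6.21, 6.89 and 6.52 in LLC and 6.89, 6.70, 6.83 and 6.74 in SLC. LLC replicate 3 reached the highest SLC value, and the difference of -0.28 (95% interval -0.59 to 0.04) was not called (limma adjusted p = 0.224). Without LLC replicate 3 it was called, at -0.40 (adjusted p = 0.0437 from limma).

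Of the 4 regulatory subunits, both of type II were called lower in LLC, and PRKAR2A by the larger difference. PRKAR2A, the alpha subunit of type II PKA, had signals of 5.97, 6.25, 6.19 and 6.33 in LLC, against 7.03, 6.86, 7.18 and 7.06 in SLC. This gap of -0.85 (SE 0.11, limma adjusted p = 0.00101), 1.80-fold lower in LLC, was wider than the spread within either cell type and held its call in all 18 alternative settings. Its cluster lists PRKAR2A under 2 gene numbers, of which the RefSeq table holds 1.

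PRKAR2B, the beta subunit of type II, was also lower in LLC, but less so. Its signals were 6.76, 6.62, 6.62 and 6.48 in LLC and 7.15, 6.93, 7.0 and 6.8 in SLC, which are narrowly separate. The difference of -0.35 (SE 0.11, limma adjusted p = 0.0489) lay just inside the threshold and lost its call in 11 of 18 settings. PRKAR1A, the ubiquitous type I subunit, had 7.14, 7.27, 7.27 and 7.40 in LLC and 7.37, 7.51, 7.31 and 7.39 in SLC. These groups overlapped, with a difference of -0.12 (95% interval -0.34 to 0.09, limma adjusted p = 0.455). PRKAR1B, the type I subunit best known from brain, averaged 3.36 ± 0.16 in LLC and 3.52 ± 0.11 in SLC (SD, n = 4 each) and was not called.

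Differences between isoforms within an array have no absolute meaning, so only their shift between cell types is described. The isoforms were measured by different probes, so a shift does not by itself show that they changed unequally. PRKAR2A minus PRKAR1A was -1.17, -1.02, -1.08 and -1.07 in LLC, against -0.34, -0.65, -0.13 and -0.33 in SLC. The type II alpha signal was thus lower relative to the type I alpha signal in every LLC array, with a shift of -0.72. PRKAR2B minus PRKAR2A was 0.79, 0.37, 0.43 and 0.15 in LLC, against 0.12, 0.07, -0.18 and -0.26 in SLC, a shift of 0.50 without overlap. PRKACB minus PRKACA shifted by -0.50, but the groups overlapped. No test was made of these shifts.

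**Figure D2:**
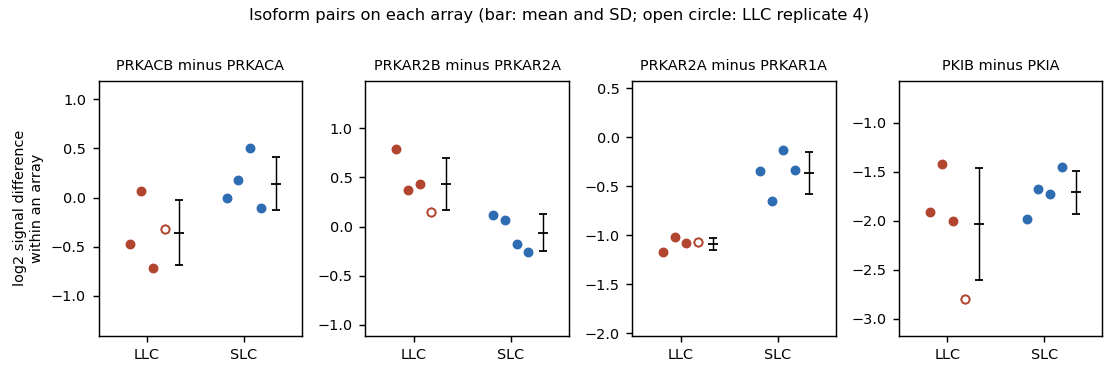
Difference of log2 signal between 2 isoforms on the same array (vertical axis), for LLC on the left and SLC on the right of each panel, with the mean and SD of 4 arrays. PRKAR2A minus PRKAR1A (-1.17 to -1.02 in LLC, -0.65 to -0.13 in SLC) and PRKAR2B minus PRKAR2A separate the cell types, while PRKACB minus PRKACA and PKIB minus PKIA overlap.

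The heat-stable inhibitors, small proteins that block the catalytic subunit, did not move together. PKIA had signals of 7.19, 6.72, 7.12 and 6.36 in LLC and 6.36, 6.13, 6.17 and 5.99 in SLC. LLC replicate 4 equalled the highest SLC array and the other LLC arrays lay above it, with a difference of 0.69 (SE 0.18, limma adjusted p = 0.0242) that lost its call in 7 of 18 settings. PKIB had 5.28, 5.30, 5.12 and 3.56 in LLC, against 4.38, 4.45, 4.44 and 4.54 in SLC. LLC replicates 1 to 3 lay above and LLC replicate 4 below every SLC array. The difference of 0.36 was not called (limma adjusted p = 0.545), and without LLC replicate 4 it was 0.78 (limma adjusted p = 0.0008).

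PKIG had signals of 4.79, 4.73, 3.53 and 4.82 in LLC and 4.93, 5.39, 4.57 and 5.54 in SLC, and its difference of -0.64 was not called (limma adjusted p = 0.197). With the replicate numbers as a block in the model PKIG was called (limma adjusted p = 0.0311). LLC replicate 3, its lowest array, was also lowest for the endothelial marker list, at 4.38, while LLC replicates 1, 2 and 4 had 5.52 to 5.74. It was lowest for the pericyte and smooth muscle list too, at 4.19, while those 3 arrays had 4.55 to 5.25. The part of those cells was not tested.

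Most anchoring protein genes had higher means in LLC. Of 15 AKAP genes, 4 were higher in LLC at adjusted p under 0.05 (9.64% of all clusters) and none lower, and 14 had a positive difference, where 52.8% of all clusters did. Only 13 of the 15 had a mean above the background limit in either cell type. The sign count also takes in AKAP3 and AKAP14, which lay under it in both. The median difference of the 15 genes was 0.31, or 0.45 without LLC replicate 4, against 0.0150 for all clusters. AKAP5, which gathers PKA, protein kinase C and calcineurin at the plasma membrane, had signals of 3.56, 3.49, 3.48 and 2.57 in LLC, against 1.59, 1.57, 1.62 and 1.88 in SLC. The groups did not overlap, and all SLC arrays lay under the background limit. The fitted difference was 1.61 (SE 0.21, limma adjusted p = 0.000868). Since the SLC level is only bounded, AKAP5 was at least 1.91-fold higher in LLC when SLC is set to the higher of both limits (2.34), a bound on the group means. On that bound it does not pass the fold filter.

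AKAP12 (gravin), a scaffold for PKA and protein kinase C, had signals of 7.61, 7.64, 7.38 and 6.43 in LLC, against 5.88, 6.39, 6.26 and 6.25 in SLC. LLC replicate 4 stood just above the highest SLC array. The difference of 1.07 (SE 0.25, limma adjusted p = 0.0143) passed the fold filter, and it was 1.35 (limma adjusted p = 0.000293) without LLC replicate 4. The filter was missed in 5 of 18 settings, among them those without LLC replicate 1, LLC replicate 2 or SLC replicate 1.

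AKAP10, which binds both types of PKA, and AKAP9, a large scaffold of the Golgi and centrosome, were higher in LLC by less than 2-fold. The signals of AKAP10 were 5.84, 5.66, 5.71 and 5.56 in LLC, against 5.06, 4.91, 5.14 and 4.97 in SLC. All LLC arrays lay above all SLC arrays, with a difference of 0.67 (SE 0.10, limma adjusted p = 0.00168) that was called in all 18 settings. AKAP9 had 7.09, 7.20, 7.33 and 7.01 in LLC and 6.59, 6.60, 6.89 and 6.48 in SLC, also without overlap, with a difference of 0.52 (SE 0.12, limma adjusted p = 0.0135).

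The other 11 AKAP genes were not called. AKAP13 was the only AKAP gene with a negative difference, at 5.61, 6.14, 5.87 and 6.74 in LLC and 6.56, 6.69, 6.82 and 6.64 in SLC. LLC replicate 4 lay among the SLC arrays and the other LLC arrays below them. The difference was -0.59 (limma adjusted p = 0.0797), and -0.80 (limma adjusted p = 0.00349) without LLC replicate 4. AKAP7 (0.61) and AKAP17A (0.54) were called without LLC replicate 4 (limma adjusted p = 0.0268 for AKAP7 and 0.0234 for AKAP17A), and AKAP17A in 3 further settings. AKAP1, which holds PKA at mitochondria, averaged 5.84 ± 0.28 in LLC and 5.73 ± 0.12 in SLC (SD, n = 4 each), with a 95% interval of -0.22 to 0.43. AKAP3 and AKAP14, known from sperm and cilia, were under the background limit in both cell types, while AKAP4, also known from sperm, averaged 6.32 ± 0.25 in LLC and 5.92 ± 0.61 in SLC.

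**Figure D3:**
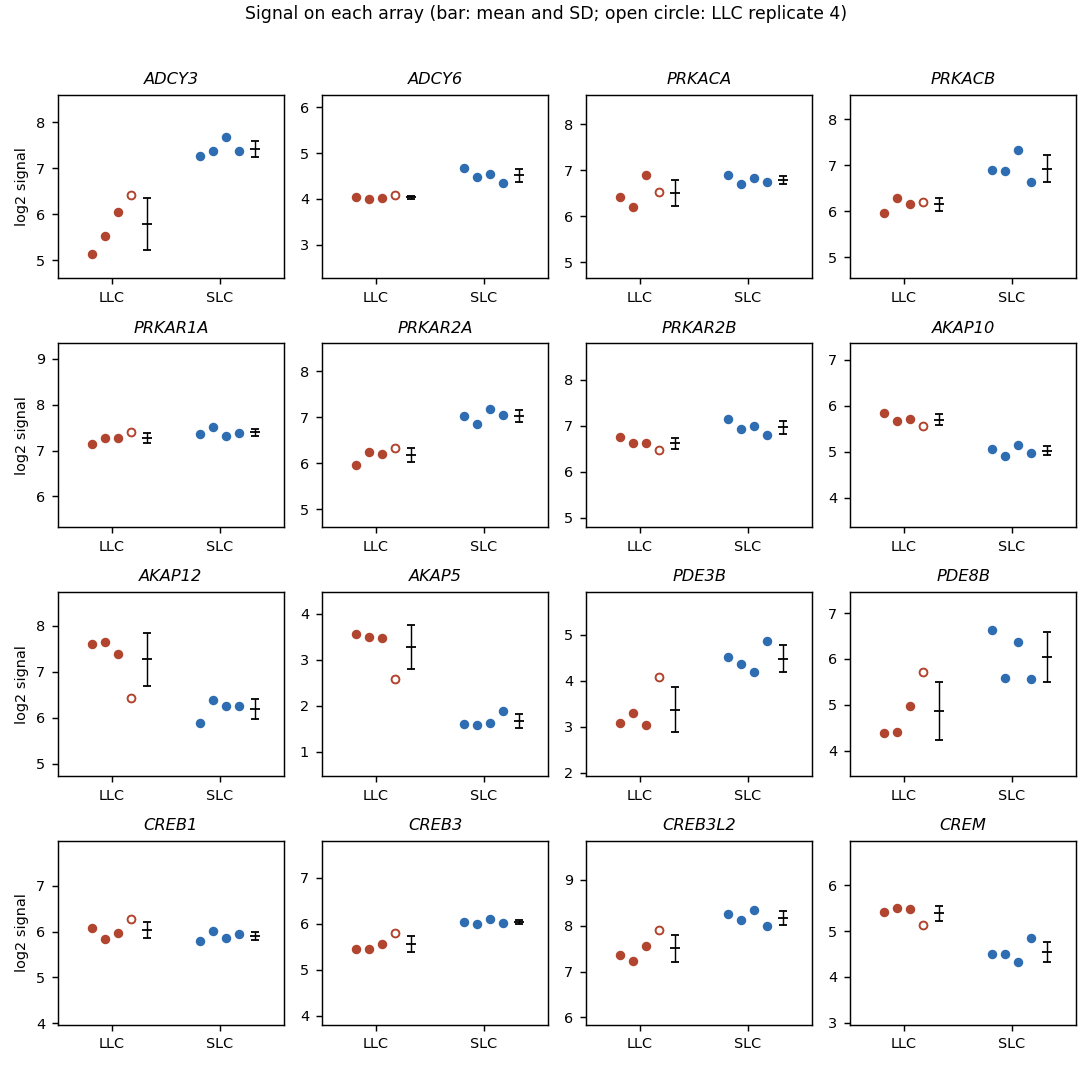
Log2 signal on each array (vertical axis) for the 16 genes with values given array by array under the rule for named genes, LLC on the left and SLC on the right, with the mean and SD of 4 arrays. Every panel spans the same range of log2 units. The open circle, LLC replicate 4, lies on the SLC side of the other LLC arrays for AKAP5, AKAP12, PDE3B and PDE8B.

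Most phosphodiesterase genes had lower means in LLC, but few were called. Of 21 genes, 2 were lower in LLC, or 9.52%, near the 10.2% of all clusters, both past the fold filter, and none was higher. A negative difference was measured for 18 of 21, where 47.2% of all clusters had one, and the median was -0.33, or -0.17 without LLC replicate 3. Only 15 of the 21 had a mean above the background limit in either cell type. The sign count also takes in genes under the limit in both, and PDE6D at -0.005. PDE3B, which breaks down both cyclic nucleotides and is inhibited by cGMP, had signals of 3.08, 3.30, 3.03 and 4.09 in LLC, against 4.52, 4.37, 4.19 and 4.87 in SLC. The groups were separate, with LLC replicate 4 just below the lowest SLC array. The difference was -1.11 (SE 0.24, limma adjusted p = 0.00898), or 2.16-fold lower in LLC, and it fell short of 2-fold without LLC replicate 3 and without SLC replicate 4.

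PDE8B, a cAMP-specific enzyme of high affinity known for its role in adrenal steroidogenesis in mice, had signals of 4.38, 4.41, 4.97 and 5.71 in LLC, against 6.64, 5.58, 6.37 and 5.57 in SLC. LLC replicate 4 lay above SLC replicates 2 and 4. The difference of -1.17 (SE 0.33, limma adjusted p = 0.0329), 2.25-fold lower in LLC, lost its call in 8 of 18 settings, among them those without LLC replicate 1, 2 or 3 and without SLC replicate 1 or 3. A second cluster of PDE8B gave -0.92 (limma adjusted p = 0.0551). PDE8A, the closest relative, had the narrowest interval of the 72 genes around a small difference, from -0.24 to 0.15, at 6.91 ± 0.05 in LLC and 6.95 ± 0.06 in SLC (SD, n = 4 each).

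By substrate, 1 of 7 enzymes specific for cAMP (PDE8B) and 1 of 8 that take both nucleotides (PDE3B) were called lower in LLC. None of 5 specific for cGMP was called, and 10.2% of all clusters were called lower in LLC. Of these groups, 6, 5 and 3 genes had a mean above the background limit in either cell type. Such counts are too small to set the substrates apart. PDE2A, which cGMP stimulates, had signals of 4.75, 4.66, 3.56 and 5.02 in LLC and 5.35, 5.41, 5.06 and 5.70 in SLC. These groups did not overlap, yet the difference of -0.88 missed the threshold (limma adjusted p = 0.0535) and passed it in 6 of 18 settings. Its lowest array was again LLC replicate 3, as for the endothelial list and the pericyte and smooth muscle list. The part of those cells was not tested. PDE4A, of the rolipram-sensitive family, had 3.66, 3.06, 3.32 and 3.66 in LLC and 3.86, 3.73, 3.81 and 3.92 in SLC, without overlap, and a difference of -0.40 (limma adjusted p = 0.0777). PDE4B and PDE7B of the cAMP-specific group had differences of -0.15 and -0.40, and PDE5A, the cGMP-specific enzyme of smooth muscle, of -0.47, none of them called. PDE6D, which carries a phosphodiesterase symbol but is a chaperone of lipid-modified proteins, had -0.01 (95% interval -0.35 to 0.34).

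The exchange factors gave no called difference. RAPGEF3 and RAPGEF4, also named EPAC1 and EPAC2, are the members of the family best established as cAMP receptors. RAPGEF3 averaged 3.26 ± 0.36 in LLC and 3.62 ± 0.45 in SLC, and RAPGEF4 5.24 ± 0.20 in LLC and 5.10 ± 0.25 in SLC (SD, n = 4 each). Their 95% intervals, -0.89 to 0.18 and -0.19 to 0.47, do not exclude differences of the size called elsewhere in the pathway. RAPGEF2 had the largest difference of the 6 genes, -0.54 (limma adjusted p = 0.124, or 0.029 with the replicate numbers as a block in the model).

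Of the nuclear factors, CREM stood apart in direction. CREM encodes activators and, from an internal promoter, the repressor ICER, which a signal per gene cannot tell apart. Its signals were 5.41, 5.50, 5.49 and 5.13 in LLC, against 4.49, 4.50, 4.32 and 4.84 in SLC. All LLC arrays lay above all SLC arrays, with a difference of 0.84 (SE 0.14, limma adjusted p = 0.0023), or 1.80-fold higher in LLC, called in all 18 settings. CREB1 encodes the factor that PKA phosphorylates, and its signals were 6.07, 5.84, 5.96 and 6.27 in LLC and 5.80, 6.01, 5.86 and 5.95 in SLC. They overlapped, and the 95% interval of the difference was -0.13 to 0.39. ATF1, the close relative of CREB1, had -0.26 (limma adjusted p = 0.175).

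A coactivator and 3 of 5 membrane-bound relatives of CREB were called lower in LLC (10.2% of all clusters). CREBBP, the acetyltransferase that binds phosphorylated CREB, averaged 5.94 ± 0.29 in LLC and 6.45 ± 0.09 in SLC (SD, n = 4 each; -0.51, SE 0.14, limma adjusted p = 0.0331), a call lost in 10 of 18 settings. CREB3 and its CREB3L relatives are released from endoplasmic reticulum membranes by cleavage and are not classic targets of PKA. CREB3 had signals of 5.45, 5.44, 5.55 and 5.80 in LLC, against 6.04, 5.99, 6.11 and 6.02 in SLC. The groups were separate, with a difference of -0.48 (SE 0.11, limma adjusted p = 0.0112). A second, dimmer CREB3 cluster gave 0.07, and averaging both clusters ended the call (limma adjusted p = 0.173).

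CREB3L2 had 7.35, 7.23, 7.55 and 7.90 in LLC, against 8.25, 8.12, 8.34 and 7.99 in SLC. The groups did not overlap, but LLC replicate 4 came close to the lowest SLC array, and the difference was -0.67 (SE 0.15, limma adjusted p = 0.0128). CREB3L1, known from mice for its part in bone collagen, averaged 5.97 ± 0.43 in LLC and 6.86 ± 0.26 in SLC (SD, n = 4 each), a difference of -0.90 (SE 0.21, limma adjusted p = 0.0151). CREB3L3 (0.18, limma adjusted p = 0.233) and CREB3L4 (-0.06, limma adjusted p = 0.877) were not called. The fibroblast markers, collagen genes among them, were lower in LLC as well. Among LLC arrays, replicate 2 had the highest mean of the fibroblast list (8.84) and the lowest CREB3L1 signal (5.67). The part of fibroblasts in the CREB3L1 difference was not tested. The coactivators CRTC1, CRTC2 and CRTC3, which enter the nucleus when dephosphorylated, had differences of -0.19, -0.23 and -0.32, none of them called.

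**Figure D4:**
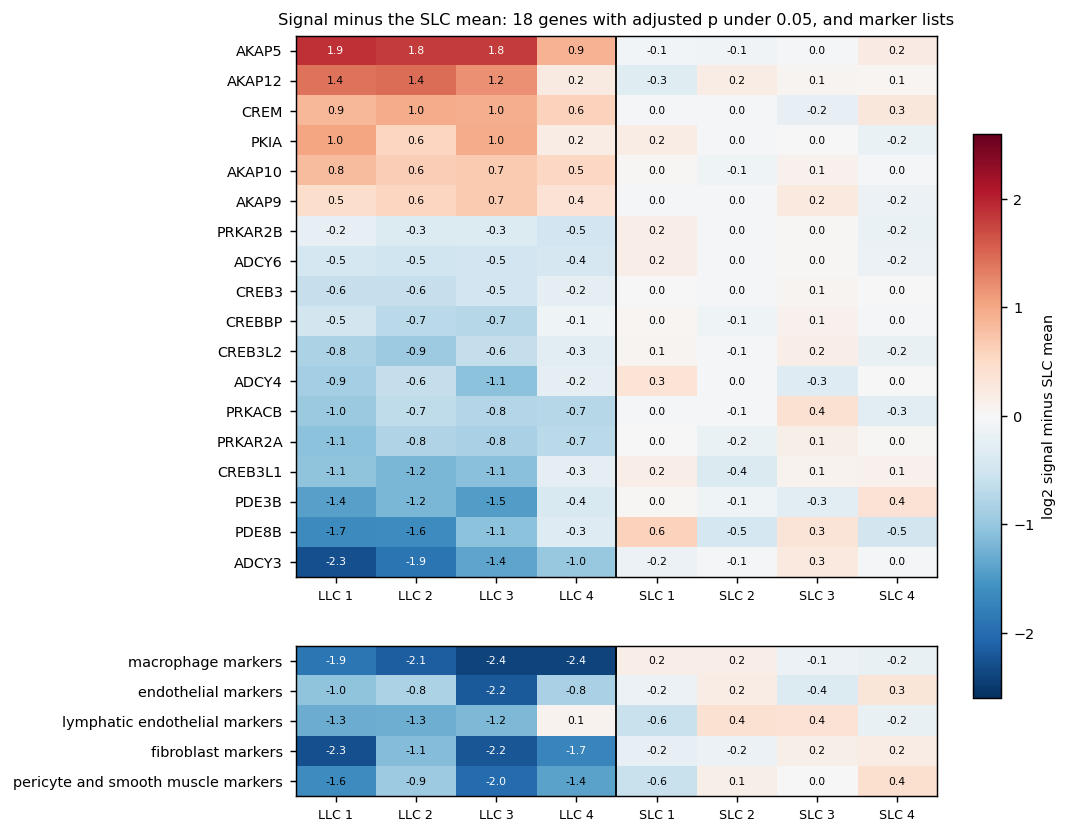
Log2 signal minus the SLC mean on each array (LLC left, SLC right) for the 18 genes with adjusted p under 0.05 (upper block) and for the mean of 5 marker lists of other cell types (lower block). LLC replicate 4 is paler than the other LLC arrays for most genes, such as AKAP12 (6.43) and PDE8B (5.71). Of the marker lists, this holds for the lymphatic endothelial list only (6.80). The LLC array nearest to SLC was replicate 2 for the endothelial (5.74), fibroblast (8.84) and pericyte and smooth muscle (5.25) lists. For the macrophage list it was replicate 1 (3.75).

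Other genes of the pathway were taken from lists chosen by role, but written with earlier results of these data known. Their counts are therefore a description and no independent sample. Over 61 of them, 10 were higher in LLC (9.64% of all clusters) and 9 lower (10.2% of all clusters) at adjusted p under 0.05. Of 17 receptors that signal through stimulatory G proteins, 2 were higher in LLC and 2 lower. PTGER4, a prostaglandin E2 receptor, had 2.10 ± 0.25 in LLC, under the background limit, and 3.05 ± 0.07 in SLC, at least 1.63-fold lower in LLC (SD, n = 4 each; limma adjusted p = 0.00107). PTH1R, the receptor of parathyroid hormone-related protein, had a difference of -0.74 (SE 0.14, limma adjusted p = 0.00452). FSHR was called (limma adjusted p = 0.00334), but both of its means lay under the limit, so no fold is given.

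Of 8 genes of G proteins and their chaperones, 2 were higher in LLC (9.64% of all clusters) and 2 lower (10.2% of all clusters). GNAO1, an inhibitory-class alpha subunit abundant in brain, had signals of 4.16, 5.10, 5.68 and 5.21 in LLC, against 2.99, 2.79, 2.91 and 2.76 in SLC. The groups were far apart, with a difference of 2.17 (SE 0.26, limma adjusted p = 0.000636). GNAI2, which inhibits adenylyl cyclase, had -0.61 (SE 0.09, limma adjusted p = 0.00179), and RIC8B, a chaperone of stimulatory alpha subunits, 0.74 (SE 0.15, limma adjusted p = 0.00772). GNAS, the stimulatory alpha subunit, was the other called gene of this list, at -0.445 (SE 0.10, limma adjusted p = 0.0143). Its call was lost in 2 of 18 settings.

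Of 13 anchoring proteins with other names, 3 were higher in LLC (9.64% of all clusters) and none lower (10.2% of all clusters). Their differences were positive for 8 and negative for 5, near the 52.8% of all clusters with a positive difference. The median of the 13 was 0.24 and the range -0.40 to 1.48. EZR (ezrin), which links membrane proteins to actin and binds PKA, had signals of 9.50, 10.10, 9.61 and 9.32 in LLC, against 8.28, 7.98, 8.01 and 8.35 in SLC. The groups were separate by a wide gap, a difference of 1.48 (SE 0.17, limma adjusted p = 0.000475). GSKIP, which ties PKA to glycogen synthase kinase, had 0.92 (SE 0.11, limma adjusted p = 0.000712), and LRBA, a scaffold of vesicle traffic, 0.39 (SE 0.10, limma adjusted p = 0.025), a call lost in 5 of 18 settings.

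Of the remaining lists, 1 of 8 other cAMP effectors was called higher in LLC (9.64% of all clusters), BVES, a membrane protein that binds cAMP. Its signals were 3.23, 3.33, 2.24 and 1.44 in LLC, where replicates 3 and 4 lay under the background limit. BVES averaged 2.56 ± 0.89 in LLC and lay under the limit in SLC (0.98 ± 0.22, SD, n = 4 each). On the same kind of bound on the group means it was at least 1.16-fold higher in LLC (limma adjusted p = 0.0138, or 0.36 with signals held at the limit). SIK1, a kinase that keeps CRTC proteins out of the nucleus, had -0.72 (SE 0.16, limma adjusted p = 0.0103). Of 9 genes known as CREB targets, 2 were higher in LLC (9.64% of all clusters) and 4 lower (10.2% of all clusters). The growth factor gene EREG differed by 4.18 (SE 0.27, limma adjusted p = 3.65e-05), while the nuclear receptor genes NR4A2 (-1.23, SE 0.19, limma adjusted p = 0.00191) and NR4A3 (-0.96, SE 0.14, limma adjusted p = 0.00139) were lower in LLC. The CREB targets thus went both ways, with a median difference of -0.35.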

How the data were processed

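The authors hybridised RNA of 4 LLC and 4 SLC samples to Affymetrix Bovine Gene ST arrays and made the deposited log2 signals with RMA (background correction, normalization across arrays and a summary per transcript cluster) in Transcriptome Analysis Console. The RMA version is not given in the sources used here. RMA draws all arrays to one distribution, so a shift shared by most genes cannot be seen, and the number of arrays limits the precision.

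The values were used as deposited. Symbols came from the platform annotation (18550 clusters with 1 symbol, 595 with several, 5270 with none), and a cluster that repeats a symbol was counted as having 1. Gene numbers of 69 of the 72 genes were found in the RefSeq table of ARS-UCD2.0 under the same symbol. No sequences were used here, and the planned promoter motif search was not run.

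For the comparison of LLC with SLC, a linear model without a replicate block was fitted to all 8 arrays in limma (version 3.58.1, run under R version 4.3.3), its variances were moderated with eBayes, and p-values were adjusted by Benjamini-Hochberg across 24415 clusters. Same-numbered samples did not deviate together (r of -0.132 to 0.167), so the numbers were not taken as pairs. Whether LLC and SLC samples share cows is not stated, and these r cannot exclude it. The main fit would ignore such a pairing. On simulated data of 24415 clusters, limma called 44 of 50 changed 2-fold, 15 of 50 changed 1.5-fold and 5 of 24215 unchanged ones. The simulation changed far fewer clusters than the 4834 called in these data, and it gave both cell types the same spread. Its rates may therefore differ from those of these data.

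Values on every array were planned for genes past the fold filter, the 10 of smallest p and 7 fixed genes. Any other gene given array by array was picked with its values known. Of each pathway list, up to 3 called genes of largest difference are named, and GNAS besides. The genes and lists were chosen with earlier results of these data known. Alternatives were 2 normalizations, a filter on dim clusters, a replicate block, other forms of eBayes, array weights, no moderation, leaving out each array, other clusters, another FDR family and signals held at the background limit.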

Additional observations from a re-analysis of the deposited data

Results flagged for a closer look

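AKAP5 had an array far from the other 3 in both cell types. Its signal was 2.57 in LLC replicate 4, against 3.48 to 3.56 in the other LLC arrays, and 1.88 in SLC replicate 4, against 1.57 to 1.62 in the other SLC arrays. These were 2 of 32 groups of 4 arrays checked for the genes named by rule, where chance gives about 1 in 20. The SLC values lie under the background limit.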

How the results depend on the processing

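Across 18 alternative settings no called gene changed direction, and 8 of the 18 called genes (ADCY3, ADCY6, PRKACB, PRKAR2A, AKAP5, AKAP9, AKAP10 and CREM) were called in every setting that tested them. The other 10 lost the call somewhere, 12 uncalled genes gained it somewhere, and 42 were never called. Of genes past the fold filter and higher in LLC (2 with all arrays), 1 was left among clusters above the 40th percentile, where AKAP5 was not tested, 1 in the fit without moderation, 0 with signals held at the background limit, and 1 to 2 with an array left out. Of those lower in LLC (3), 1 was left without moderation, and 1 (without LLC replicate 3) to 6 (without LLC replicate 4) with an array left out. Genes lower in LLC at adjusted p under 0.05 (12) numbered 5 without moderation, 7 with signals held at the limit, where 7371 clusters became constant, and 8 (without LLC replicate 2) to 16 (without LLC replicate 4) with an array left out. These were 6.94% of the 72 genes, against 6.53% of all clusters, without moderation, and 9.72%, against 7.13%, with signals held at the limit. Those higher in LLC (6) numbered 4 in both of these settings and 5 to 9 with an array left out. With an array left out, the median difference was -0.132 to -0.012 for adenylyl cyclases, 0.222 to 0.447 for AKAP genes and -0.387 to -0.174 for phosphodiesterases. Whether same-numbered samples share a cow is not stated. With the replicate block 6 genes were higher and 14 lower in LLC, 2 and 2 past the fold filter, with 15 of the 18 calls shared. The block ended the calls of PRKAR2B, PDE8B and CREBBP, and added PKIG (limma adjusted p = 0.0311), RAPGEF2 (limma adjusted p = 0.029), PDE2A, PDE3A and PDE10A. Beyond settings that act by their construction (fewer arrays or clusters, no moderation, a floor), the cause of a lost call was not tested. With 4 arrays a group, changes near 1.5-fold were mostly missed in the simulation, whose setting differs from these data. A gene without a call may still differ. Signals under the background limit give bounds only.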
